A study of Mus musculus with 12 samples.

Results

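Transcripts of 40 genes that drive and carry out the mammalian cell cycle were followed in mouse liver after concanavalin A (Con A), alone or together with mesenchymal stem cells (MSC). The members were fixed by gene symbol: cyclins, cyclin-dependent kinases (CDKs) and their inhibitors, DNA replication genes and mitosis genes. All 40 symbols were found among the 23574 entries of the count tables, and 38 of them were among the 14275 entries with enough counts to be tested. Orc1, a subunit of the origin recognition complex, had 0 to 11 counts per library and Bub1, a spindle checkpoint kinase, 0 to 8, and neither was tested.

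The series holds 12 liver RNA libraries from wild type C57BL/6 mice in 4 groups of 3: Con A at 6 h, Con A + MSC at 6 h, Con A at 12 h and Con A + MSC at 12 h. Con A, a lectin of the jack bean, stimulates T cells and so causes hepatitis, and all 12 libraries come after Con A, with no group that did not receive it. Changes from 6 h to 12 h therefore cannot be told apart from changes with time of day, and every comparison sets injured liver against injured liver. The labels give neither the species, the route nor the dose of the MSC, nor the age of the mice, and do not state that the 3 replicates of a group are different animals, so the tests measure the spread between these libraries. The series text speaks of hepatocyte RNA while the sample labels give liver tissue, and 8 hepatocyte genes, albumin among them, summed to 29042 to 105482 CPM (counts per 1e6 counts) in the 12 libraries.

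Cells enter the cycle when D-type cyclins with Cdk4 and Cdk6, and then E-type cyclins with Cdk2, relieve the block that retinoblastoma proteins hold on E2F transcription factors, a step opposed by the CDK inhibitors. E2F targets include the proteins that license origins and form the Mcm2 to Mcm7 helicase, and the enzymes that supply nucleotides. Genes for mitosis follow later under the DREAM and MuvB complexes, which bind CHR elements next to CCAAT boxes. Hepatocytes in the healthy adult liver rarely divide, but after injury or loss of tissue they leave rest, with Myc among the immediate early genes and cyclin D1 as a marker of passage through G1.

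The promoters of the members carry these elements in different roles, and 5 are shown because the members next to them are the ones that the results below turn on or compare. RefSeq promoters (GRCm38.p6) were found for 31 of the 40 members, and the window from 250 bases before to 50 bases after the start was searched on both strands for 4 motifs. These were E2F sites (TTTCCCGC, TTTCGCGC, TTTGCCGC or TTTGGCGC), the CHR (TTTGAA), the CCAAT box (CCAAT) and the E-box CACGTG that Myc with Max is known to bind. Of the matched members, Mcm6 (chr1:128359706-128359955, minus strand), Mcm2 (chr6:88898781-88899030, minus strand), Mki67 (chr7:135716380-135716629, minus strand), Cdk4 (chr10:127063285-127063534, plus strand) and Rrm2 (chr12:24708004-24708253, plus strand) are printed from 250 bases before the start to the start. Capitals mark every motif match, on either strand, so that ATTGG is a CCAAT box read from the other strand.
Mcm6: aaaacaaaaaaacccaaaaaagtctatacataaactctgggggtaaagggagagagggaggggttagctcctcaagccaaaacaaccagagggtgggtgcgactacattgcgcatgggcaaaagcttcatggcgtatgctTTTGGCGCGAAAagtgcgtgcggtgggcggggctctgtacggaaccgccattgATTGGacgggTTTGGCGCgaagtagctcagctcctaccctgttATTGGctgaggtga
Mcm2: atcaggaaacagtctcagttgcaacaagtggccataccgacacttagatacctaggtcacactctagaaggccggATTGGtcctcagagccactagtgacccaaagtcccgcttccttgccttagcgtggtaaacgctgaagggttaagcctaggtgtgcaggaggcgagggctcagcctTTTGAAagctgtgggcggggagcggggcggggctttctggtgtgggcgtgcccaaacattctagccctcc
Mki67: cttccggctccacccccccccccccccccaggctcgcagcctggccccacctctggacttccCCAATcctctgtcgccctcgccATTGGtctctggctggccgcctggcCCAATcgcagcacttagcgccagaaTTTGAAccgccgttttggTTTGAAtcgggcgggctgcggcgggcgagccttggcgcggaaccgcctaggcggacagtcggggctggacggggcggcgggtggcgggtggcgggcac
Cdk4: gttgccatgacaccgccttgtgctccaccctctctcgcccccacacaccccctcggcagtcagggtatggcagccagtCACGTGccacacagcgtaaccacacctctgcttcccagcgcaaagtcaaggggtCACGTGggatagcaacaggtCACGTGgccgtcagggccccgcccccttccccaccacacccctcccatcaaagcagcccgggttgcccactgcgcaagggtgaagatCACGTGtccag
Rrm2: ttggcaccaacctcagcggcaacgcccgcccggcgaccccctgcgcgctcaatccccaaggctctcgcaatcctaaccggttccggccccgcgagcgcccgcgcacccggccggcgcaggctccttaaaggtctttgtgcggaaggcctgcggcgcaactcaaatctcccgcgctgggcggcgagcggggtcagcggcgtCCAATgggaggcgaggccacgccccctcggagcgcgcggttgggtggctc

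Mcm6 holds 3 E2F matches, 2 of which overlap in the first run of capitals, with 2 CCAAT boxes. Mcm2 has no E2F match but 1 CHR and 1 CCAAT box, Mki67 has 2 CHR and 3 CCAAT boxes, Cdk4 has 4 E-boxes and Rrm2 has 1 CCAAT box. Among the 8 matched members of origin licensing and the helicase, 7 had an E2F match (87.5%, with Mcm2 the exception), against 2.6% of the 27025 genes with a promoter in the table. A CHR was found in 8 of the 11 matched mitotic members (72.73%), against 20.23% of all genes, and a CCAAT box in 10 of those 11, against 41.06%. E-boxes were present in 4 of the 31 matched members (Cdk4, Cdk6, Cdkn2c and Tyms), or 12.9%, against 8.09% of all genes. A match is a description of letters in this window. From 6 h to 12 h without MSC Mki67 fell and Aurka rose, both with CHR and CCAAT matches. Cdk4 rose and Cdk6 fell there, both with an E-box. Over 19 alternative settings, described below, these calls held in 18 (Mki67), 15 (Aurka), 19 (Cdk4) and 4 (Cdk6). The part of the motifs in these changes was not tested.

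Library totals ran from 29.7 to 36.1 (in 1e6 counts), so that 3 counts in a library correspond to 0.0657 to 0.119 CPM. The members together held 7355 to 11188 counts per library. Counting error is large for the weaker ones, since 12 of the 40 stayed under 50 counts in every library while 9 reached at least 500. The 3 libraries of Con A at 12 h stood apart from each other in their share of mitochondrial transcripts, with 5.59%, 17.3% and 24.9%, against 6.71% to 12.1% in the other 9. TMM scaling factors were 0.815 to 0.972 at 6 h, 0.911 to 1.26 for Con A at 12 h and 1.23 to 1.29 for Con A + MSC at 12 h, and CPM below are scaled by them.

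Levels differed by orders of magnitude between members, and by less within each role. On the scale of CPM per kb of exon (GENCODE M21 gene models), Cdk4 was highest in the mean of the 12 libraries at 14.5, followed by Myc at 10.9, the sliding clamp Pcna at 6.43, Ccnd3 at 4.13, the CDK inhibitor Cdkn1b at 4.12 and Ccnd1 at 3.73. The order of the first 2 depended on time: Myc was above Cdk4 at 6 h, with group means of 17.7 against 10.1 for Con A and 19.8 against 12.3 with MSC. At 12 h Cdk4 led with 18.6 and 16.9, and Myc, at 4.37 and 1.80, lay below Pcna at 5.54 and 6.26. Over all 12 libraries Ccnd3 and Cdkn1b lay within each other's spread over the libraries. At the other end were Cdc6, which loads the helicase, at 0.0632, Orc1 at 0.0294 and Bub1 at 0.0283. The 13 mitotic members had 0 to 124 counts each in a library and 293 to 484 in sum, which was 11.9 ± 2.57 CPM (SD, n = 3) for Con A at 6 h, 14.1 ± 3.35 with MSC at 6 h, 11 ± 1.19 for Con A at 12 h and 9.82 ± 0.873 with MSC at 12 h. The ranges of these sums over the libraries overlapped between all 4 groups.

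**Figure D1:**
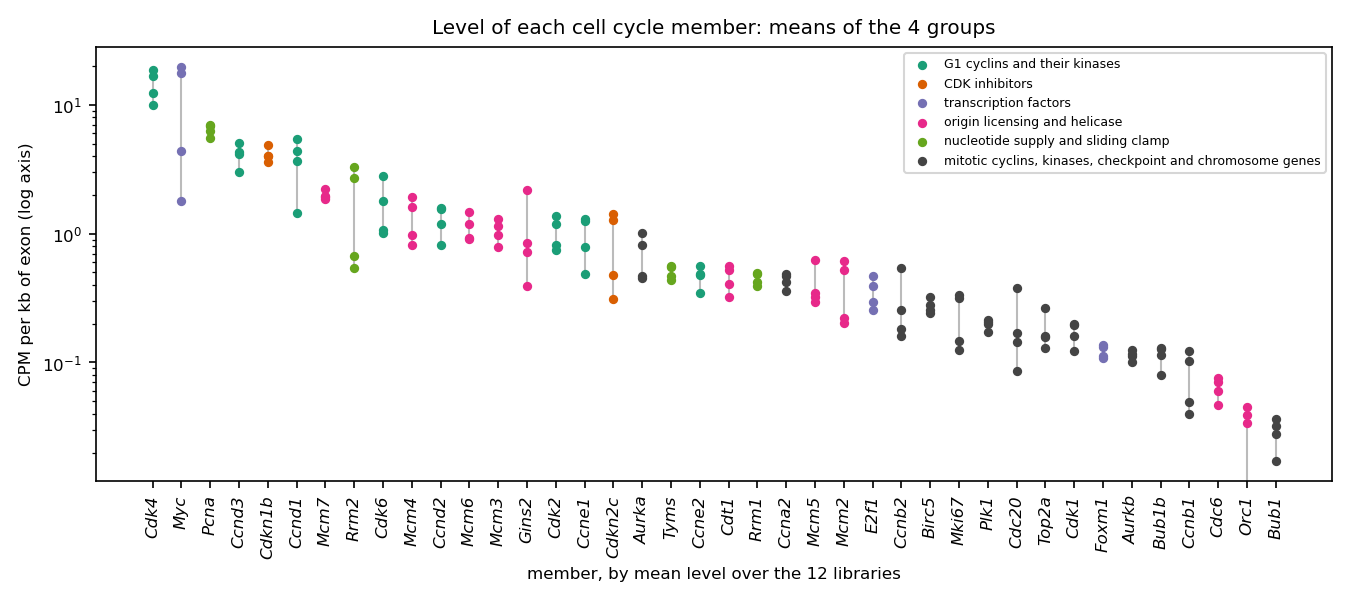
Level of each of the 40 members, in CPM per kb of exon on a log axis, as the mean of each of the 4 groups (points) joined by a line and coloured by role; members are ordered by their mean over the 12 libraries. Cdk4 (14.5) and Myc (10.9) have the highest means over the 12 libraries, with Myc above Cdk4 in both 6 h groups and below Pcna in both 12 h groups, and Orc1, at 0 in the group whose point falls below the axis, and Bub1 have the lowest.

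The first comparison asks how these genes changed between 6 h and 12 h after Con A alone. Of the 38 tested members, 12 passed the threshold (edgeR quasi-likelihood test, Benjamini-Hochberg adjusted p under 0.05 over all 14275 genes): 5 rose (Cdk2, Cdk4, Cdkn2c, Mcm2, Aurka) and 7 fell (Ccnd1, Ccne1, Cdk6, Myc, Mcm4, Rrm2, Mki67). Cyclin D1 and Myc, genes of cycle entry, fell 3.80- and 4.06-fold and Rrm2, of nucleotide supply, 4.08-fold, while the CDK inhibitor Cdkn2c rose 4.15-fold. Fewer cells of a type and less RNA per cell cannot be told apart in these libraries. That is 31.6% of the tested members, against 49.2% of all genes (24.4% rose and 24.8% fell), a share of members below that of all genes. Their median log2 change was -0.01, beside 0.02 over all genes. Without library 1, 2 or 3 of Con A at 12 h, the group whose mitochondrial shares stand apart, 8, 9 and 11 members passed. Without library 3 of Con A at 6 h 8 did. The calls over all genes in these fits are not given here. In a fit with the mitochondrial share as a covariate 12 members passed, beside 3430 rises and 3659 falls over all genes. With MSC, 9 of 38 passed, or 23.7% against a background of 40.7% (20.6% rose and 20.2% fell). Cdkn2c and Mcm2 rose and Ccne1, Cdk6, Myc, Mcm4, Rrm2, Ccnb1 and Mki67 fell, with a median of 0.03 beside 0.06 over all genes.

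The 2 time comparisons use separate libraries in 1 fit. They share 8 members, all changed in the same direction, which is 66.7% of the 12 and 88.9% of the 9, and 25 tested members passed in neither. The overlap over all genes, of which 49.2% passed without MSC and 40.7% with it, was not counted. Whether the overlap of the members differs from that of other genes was therefore not tested. The groups at the 2 times did not overlap for 4 members higher at 12 h and 7 lower without MSC (27.4% and 27.3% of all genes), and for 9 higher and 10 lower with MSC (30.6% and 28%). Scaling by total count instead of TMM raised the median change of all genes by 0.26 without MSC and by 0.53 with MSC. The share of rises among all calls then went from 49.6% to 64.6% without MSC and from 50.5% to 82.5% with MSC. With MSC 19 members then passed, 15 as rises and 4 as falls (Ccne1, Cdk6, Myc and Rrm2). Of all 14275 genes, 5780 rose and 1228 fell in that fit with MSC. The changes below are relative to the TMM scale, and no member that passed on it changed sign under total counts.

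**Figure D2:**
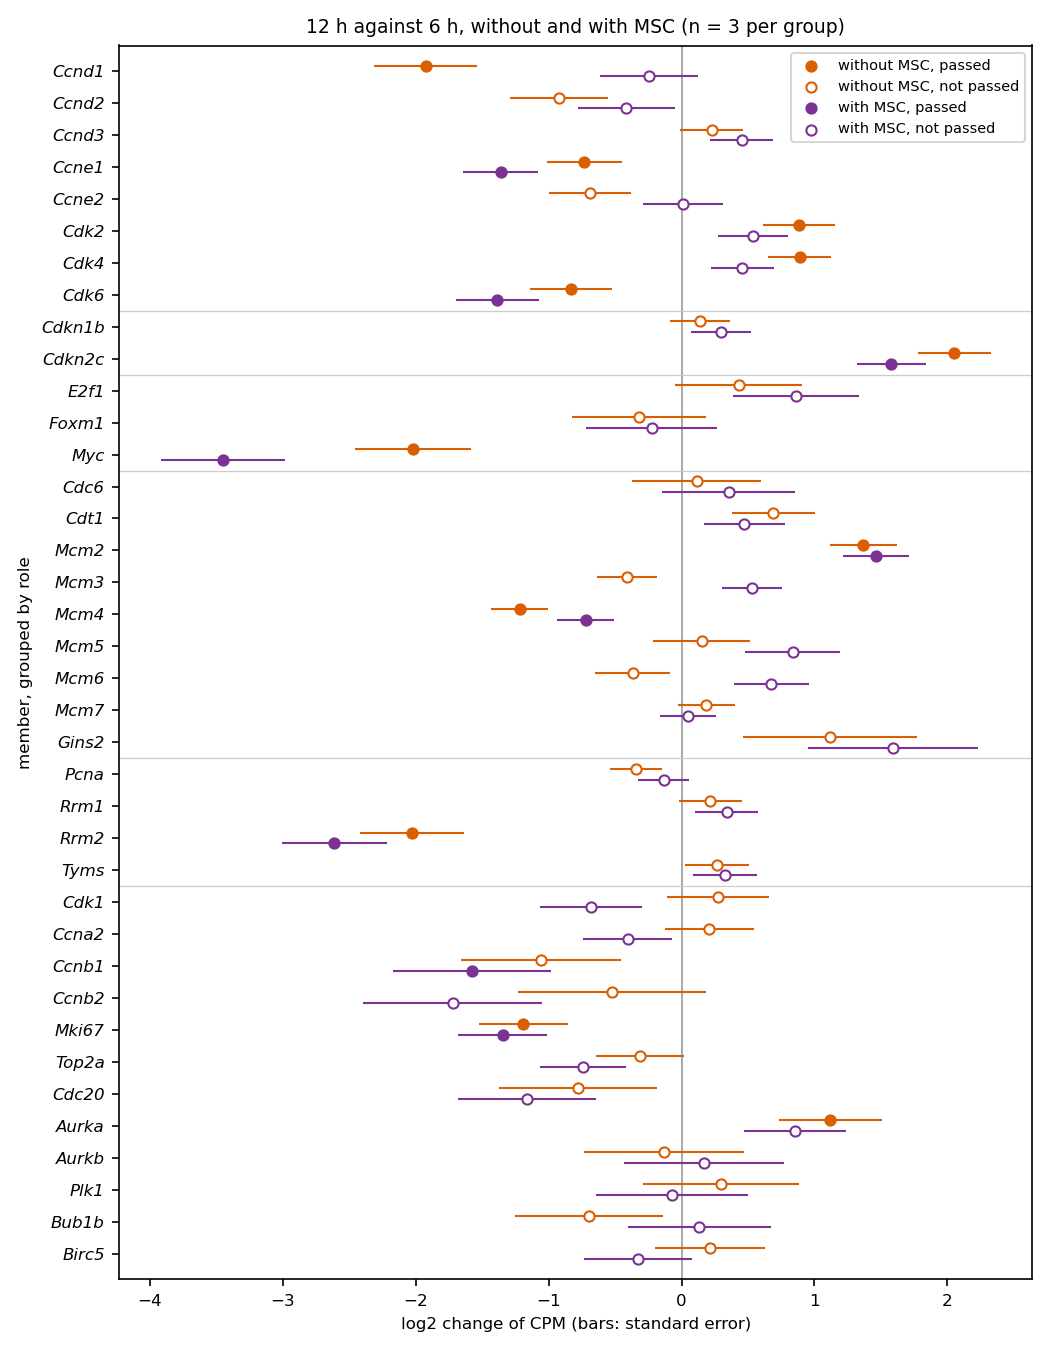
Log2 change from 6 h to 12 h for the 38 tested members, without MSC (orange) and with MSC (purple), with standard errors as bars and filled points for members that passed the threshold; grey lines separate the roles. Myc, Rrm2 and Mki67 lie left of 0 and Cdkn2c and Mcm2 right of 0 in both, while Ccnd1 passed only in the orange comparison, a difference between the comparisons that itself gave an adjusted p of 0.146.

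**Figure D3:**
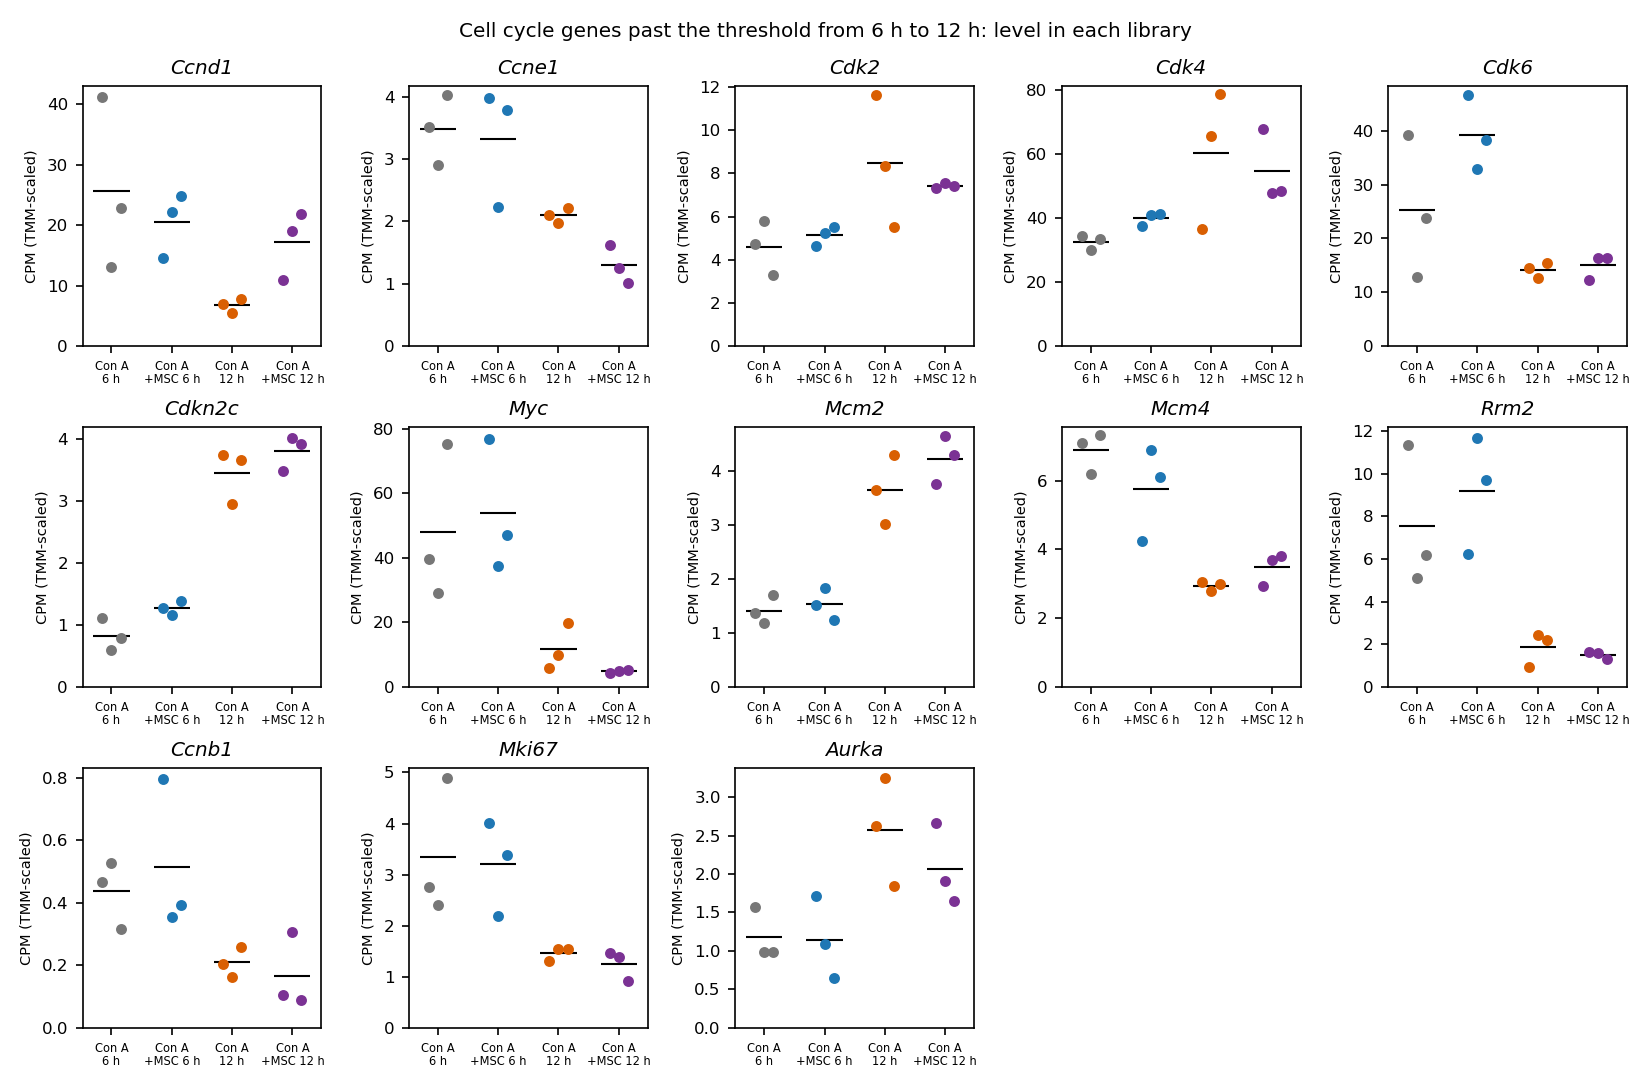
CPM (TMM-scaled, axes from 0) of the 13 members that passed in a time comparison, 1 point per library and a line at each group mean (n = 3). Cdkn2c and Mcm2 are higher in all 6 libraries at 12 h than in all 6 at 6 h, and Myc, Rrm2 and Mki67 are lower in all 6.

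Among the G1 cyclins, Ccnd1 (cyclin D1) had 41.3, 13.1 and 22.8 CPM in the Con A libraries at 6 h and 7.02, 5.45 and 7.84 CPM at 12 h. With MSC it had 14.5, 22.2 and 24.8 CPM at 6 h and 10.9, 19.1 and 21.8 CPM at 12 h. All 3 libraries of Con A at 12 h lay below the other 9, whose groups overlapped. Without MSC it fell 3.80-fold (log2 change -1.93, SE 0.39, edgeR adjusted p = 0.00149). With MSC its change was -0.25 (SE 0.37, edgeR adjusted p = 0.624). Ccnd2 and Ccnd3, the other D-type cyclins, did not pass in either time comparison. Their log2 changes were -0.93 and 0.23 without MSC and -0.41 and 0.45 with it. Ccnd2 without MSC lay just above the threshold (SE 0.37, edgeR adjusted p = 0.0540). It passed with DESeq2, a replicate block, the mitochondrial share as a covariate, and without library 3 of Con A at 12 h. Over the 12 libraries Ccnd2 ranged from 3.62 to 18.6 CPM and Ccnd3 from 26.0 to 56.1 CPM. Exons of Ccnd1 share 23.4% of their bases with LTO1 on the other strand, and the strand setting of the counts is not given in the sources used here.

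Ccne1 (cyclin E1, the partner of Cdk2) had 3.51, 2.90 and 4.02 CPM at 6 h and 2.09, 1.97 and 2.22 CPM at 12 h without MSC. With MSC it had 3.98, 2.22 and 3.78 CPM at 6 h and 1.62, 1.25 and 1.02 CPM at 12 h. The times did not overlap in either arm. It fell 1.66-fold without MSC (log2 change -0.73, SE 0.28, edgeR adjusted p = 0.0458) and 2.57-fold with MSC (-1.36, SE 0.28, edgeR adjusted p = 0.00247). The first of these calls is marginal, since it held in 5 of 19 alternative settings, while the second held in all 19. Ccne2, its paralog, had changes of -0.69 and 0.01 and did not pass, with 1.15 to 2.67 CPM over the 12 libraries.

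The kinases moved apart. Cdk4 had 34.5, 30.0 and 33.4 CPM at 6 h and 36.6, 65.9 and 79.0 CPM at 12 h without MSC, and 37.5, 41.1 and 41.2 CPM and 68.1, 47.8 and 48.4 CPM with MSC. Every 12 h library was above the 6 h libraries of its own arm, and library 1 of Con A at 12 h, the one with the lowest mitochondrial share, was the closest to them. Cdk4 rose 1.85-fold without MSC (log2 change 0.89, SE 0.24, edgeR adjusted p = 0.00851) and its log2 change of 0.46 with MSC (SE 0.24, edgeR adjusted p = 0.142) did not pass. Tspan31, which shares 19.7% of the exon bases of Cdk4 from the other strand, also rose without MSC (log2 change 0.59, edgeR adjusted p = 0.0337).

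Cdk2 had 4.73, 5.78 and 3.31 CPM at 6 h and 11.6, 8.33 and 5.51 CPM at 12 h without MSC, and 4.61, 5.22 and 5.53 CPM and 7.32, 7.53 and 7.43 CPM with MSC. The times overlapped without MSC and did not with it, where the 12 h libraries were nearly equal. It rose 1.84-fold without MSC (log2 change 0.88, SE 0.27, edgeR adjusted p = 0.0160), a call lost without library 3 of Con A at 6 h (adjusted p = 0.0568) or library 1 of Con A at 12 h (0.0623). With MSC the change of 0.54 (SE 0.27) did not pass (edgeR adjusted p = 0.124).

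Cdk6, like Cdk4 a partner of the D-type cyclins, went the other way. Its libraries had 39.2, 12.8 and 23.7 CPM at 6 h and 14.5, 12.7 and 15.4 CPM at 12 h without MSC, and 46.6, 33.0 and 38.3 CPM and 12.3, 16.4 and 16.3 CPM with MSC. Library 2 of Con A at 6 h sat among the 12 h values, whereas the 6 h libraries with MSC were all far above those at 12 h. The fall was 1.78-fold without MSC (log2 change -0.83, SE 0.31, edgeR adjusted p = 0.0404) and 2.61-fold with MSC (-1.39, SE 0.31, edgeR adjusted p = 0.00380). Without MSC this call held in 4 of 19 alternatives, and the change was -0.33 (adjusted p = 0.315) without library 1 of Con A at 6 h and -1.14 (0.00215) without library 2. With MSC the call held in all 19.

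Cdkn2c, an inhibitor of Cdk4 and Cdk6, had the largest rise of the members that passed. It had 1.11, 0.594 and 0.788 CPM at 6 h and 3.75, 2.95 and 3.66 CPM at 12 h without MSC, from 31, 18 and 20 and 147, 90 and 99 counts. With MSC it had 1.27, 1.16 and 1.39 CPM at 6 h and 3.49, 4.03 and 3.93 CPM at 12 h. Every 12 h library was above every 6 h library, with a gap wider than the spread within either time. The rise was 4.15-fold without MSC (log2 change 2.05, SE 0.27, edgeR adjusted p = 9.66e-05) and 2.99-fold with MSC (1.58, SE 0.26, edgeR adjusted p = 0.000547), and both calls held in all 19 alternatives. Cdkn1b, which inhibits Cdk2 with cyclin E, had changes of 0.14 and 0.30 and did not pass, with 13.4 to 26.7 CPM over the 12 libraries.

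Of the transcription factors, Myc fell and the others did not pass. Myc had 39.7, 29.2 and 75.3 CPM at 6 h and 5.87, 9.87 and 19.9 CPM at 12 h without MSC, and 76.9, 37.4 and 46.9 CPM and 4.46, 5.06 and 5.17 CPM with MSC. The 6 libraries at 6 h were widely spread, and all lay above the 6 at 12 h, among which those with MSC were the lowest 3. The fall was 4.06-fold without MSC (log2 change -2.02, SE 0.44, edgeR adjusted p = 0.00243) and 11-fold with MSC (-3.45, SE 0.47, edgeR adjusted p = 0.000134), and both calls held in all 19 alternatives. E2f1, a transcription factor of S phase genes, had log2 changes of 0.43 and 0.86, and Foxm1, a factor for mitotic genes, of -0.32 and -0.23, none of which passed. E2f1 ranged from 0.495 to 2.19 CPM and Foxm1 from 0.307 to 1.11 CPM over the 12 libraries.

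The 6 subunits of the Mcm helicase did not move together. Mcm2 had 1.36, 1.19 and 1.70 CPM at 6 h and 3.65, 3.02 and 4.29 CPM at 12 h without MSC, and 1.51, 1.84 and 1.25 CPM and 3.75, 4.64 and 4.29 CPM with MSC. All 12 h libraries were above all 6 h libraries. It rose 2.58-fold without MSC (log2 change 1.37, SE 0.25, edgeR adjusted p = 0.000878) and 2.76-fold with it (1.46, SE 0.25, edgeR adjusted p = 0.000677), in all 19 alternatives.

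Mcm4 went down in the same libraries, from 7.09, 6.21 and 7.33 CPM at 6 h to 3.06, 2.79 and 3.00 CPM at 12 h without MSC, and from 4.25, 6.88 and 6.10 CPM to 2.95, 3.70 and 3.79 CPM with MSC. The times did not overlap in either arm, and the 6 h library 1 with MSC was the nearest to the 12 h values. It fell 2.33-fold without MSC (log2 change -1.22, SE 0.22, edgeR adjusted p = 0.000669) and 1.65-fold with MSC (-0.72, SE 0.21, edgeR adjusted p = 0.0167). The call with MSC was lost under total count scaling (change -0.20, adjusted p = 0.551), without library 2 or 3 of Con A + MSC at 6 h (0.0766 and 0.0578) and without library 1 of Con A + MSC at 12 h (0.0638).

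The other helicase subunits did not pass. Without MSC the log2 changes were -0.41 for Mcm3, 0.15 for Mcm5, -0.37 for Mcm6 and 0.19 for Mcm7, and with MSC they were 0.53, 0.84, 0.68 and 0.05. Over the 12 libraries Mcm3 ranged from 2.61 to 5.44 CPM, Mcm5 from 0.609 to 2.74, Mcm6 from 2.82 to 7.78 and Mcm7 from 6.09 to 10.9 CPM. Gins2, a subunit of the GINS complex that activates the helicase, had 0.752, 3.17 and 0.867 CPM at 6 h and 3.88, 2.95 and 3.66 CPM at 12 h without MSC, and 0.755, 4.20 and 3.89 CPM and 15.6, 6.35 and 4.88 CPM with MSC. In both arms library 1 at 6 h was far below the 12 h libraries, and library 2 of Con A at 6 h lay among them. Its changes were 1.12 (SE 0.65) and 1.59 (SE 0.64), which did not pass (edgeR adjusted p = 0.172 and 0.0621). Gse1 covers 67.3% of the exon bases of Gins2 from the other strand and rose in both arms (log2 change 1.14 without MSC), so the counts of Gins2 are uncertain. The loading factors Cdc6 and Cdt1 had log2 changes of 0.11 and 0.69 without MSC and 0.35 and 0.47 with it, and did not pass. They ranged from 0.178 to 0.512 CPM (Cdc6) and from 0.788 to 2.08 CPM (Cdt1).

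In nucleotide supply, Rrm2, the regulated small subunit of ribonucleotide reductase, had 11.4, 5.12 and 6.19 CPM at 6 h and 0.944, 2.43 and 2.22 CPM at 12 h without MSC, and 6.24, 11.6 and 9.71 CPM and 1.62, 1.60 and 1.29 CPM with MSC. All 6 libraries at 6 h were above all 6 at 12 h. The fall was 4.08-fold without MSC (log2 change -2.03, SE 0.39, edgeR adjusted p = 0.00117) and 6.12-fold with MSC (-2.61, SE 0.40, edgeR adjusted p = 0.000296), in all 19 alternatives. Rrm1, the large subunit of the same enzyme, had log2 changes of 0.22 (SE 0.24) and 0.34 (SE 0.24) and did not pass. Neither did thymidylate synthase Tyms (0.26 and 0.33) nor Pcna (-0.34 and -0.13). Over the 12 libraries Rrm1 ranged from 3.38 to 6.61 CPM, Tyms from 2.15 to 3.85 and Pcna from 10.5 to 19.8 CPM.

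Of the 12 tested mitotic members, Mki67 and Aurka passed without MSC and Mki67 and Ccnb1 with it. Mki67, whose protein Ki-67 coats mitotic chromosomes and marks cycling cells, had 2.76, 2.41 and 4.89 CPM at 6 h and 1.30, 1.54 and 1.55 CPM at 12 h without MSC. With MSC it had 4.02, 2.19 and 3.39 CPM at 6 h and 1.46, 1.38 and 0.926 CPM at 12 h. All 6 libraries at 12 h were below all 6 at 6 h, and library 3 of Con A at 6 h was the highest. It fell 2.28-fold without MSC (log2 change -1.19, SE 0.34, edgeR adjusted p = 0.0112) and 2.54-fold with it (-1.35, SE 0.34, edgeR adjusted p = 0.00713). The first call was lost without library 3 of Con A at 6 h (change -0.79, adjusted p = 0.0815), and the second under total count scaling (-0.80, adjusted p = 0.0651).

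Aurka, a kinase of the spindle poles, had 1.58, 0.990 and 0.985 CPM at 6 h and 2.63, 3.25 and 1.85 CPM at 12 h without MSC, and 1.71, 1.09 and 0.642 CPM and 2.66, 1.91 and 1.65 CPM with MSC. The times did not overlap without MSC, and they met at 1.71 and 1.65 CPM with it. Aurka rose 2.17-fold without MSC (log2 change 1.12, SE 0.38, edgeR adjusted p = 0.0290), a call lost without library 2 or 3 of Con A at 6 h (adjusted p = 0.0781 and 0.0864) or library 1 or 2 at 12 h (0.0516 and 0.0981). With MSC its change of 0.85 (SE 0.38) did not pass (edgeR adjusted p = 0.0937).

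Ccnb1 (cyclin B1, the partner of Cdk1 at entry into mitosis) rested on few counts: 13, 16 and 8 at 6 h and 8, 5 and 7 at 12 h without MSC, and 20, 10 and 11 and 4, 14 and 4 with MSC. In CPM these were 0.466, 0.528 and 0.315, then 0.204, 0.164 and 0.259, and 0.795, 0.353 and 0.393, then 0.104, 0.307 and 0.0904, with the times apart in each arm. Its fall with MSC (log2 change -1.58, SE 0.59, edgeR adjusted p just under 0.05) lay at the threshold and held in 3 of 19 alternatives. Without MSC the change of -1.06 (SE 0.60) did not pass (edgeR adjusted p = 0.161). The other 9 tested mitotic members (Cdk1, Ccna2, Ccnb2, Top2a, Cdc20, Aurkb, Plk1, Bub1b and Birc5) did not pass in either time comparison. Their changes ran from -0.78 (Cdc20, an activator of the anaphase-promoting complex) to 0.30 (Plk1, a mitotic kinase) without MSC and from -1.72 (Ccnb2, cyclin B2) to 0.17 (Aurkb, a kinase of the chromosomal passenger complex) with MSC. Over the 12 libraries these 9 ranged from 0.0656 to 2.82 CPM, lowest for Cdc20 and highest for Top2a.

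Other cell cycle genes, 130 in lists of replication, mitosis and G1 and S phase control with 119 tested, moved as follows. Without MSC 31 rose and 12 fell: 14 and 3 of 46 replication genes, 8 and 4 of 38 mitosis genes, and 9 and 5 of 35 genes of G1 and S control. These are 26.1% and 10.1% of the 119, beside 24.4% and 24.8% of all genes, so that the share of rises is near that of all genes. With MSC 20 rose and 14 fell: 11 and 2 of replication, 5 and 5 of mitosis, and 4 and 7 of G1 and S control, or 16.8% and 11.8% of the 119, beside 20.6% and 20.2% of all genes. Among replication genes, Cad, which starts pyrimidine synthesis, rose from a mean of 4.41 ± 0.743 CPM (SD, n = 3) at 6 h to 29.3 ± 8.42 CPM at 12 h without MSC (log2 change 2.73, edgeR adjusted p = 6.25e-06) and by 1.53 on that scale with MSC (edgeR adjusted p = 0.000184). Pold1, the catalytic subunit of DNA polymerase delta, rose by 2.2 and 2.25 (edgeR adjusted p = 0.000164 and 0.000182). Rfc1, of the clamp loader, rose by 1.25 without MSC, and its partner Rfc2 by 0.77 and the licensing inhibitor Gmnn by 2.29 with MSC. Shmt1, of folate metabolism, fell by 1.36 on the log2 scale without MSC.

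In mitosis, Wee1, the kinase that restrains Cdk1, fell from 11.5 ± 4.69 to 0.809 ± 0.293 CPM (SD, n = 3) without MSC (log2 change -3.83, edgeR adjusted p = 1.65e-05) and by 3.91 on the log2 scale with MSC (edgeR adjusted p = 1.5e-05). Its relative Pkmyt1 rose with MSC by 2.53, as did Ccnf by 2.46 and the condensin subunit Smc2 by 1.20. Ncapd2, also of condensin, rose by 1.33 and Incenp, of the chromosomal passenger complex, by 1.68 without MSC. Hmmr, a spindle protein, had 8, 8 and 10 counts at 6 h and 0, 0 and 0 at 12 h without MSC.

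In G1 and S control, Mxd1, an antagonist of Myc for Max, fell by 3.36 on the log2 scale without MSC (edgeR adjusted p = 5.6e-06) and by 2.94 with it (edgeR adjusted p = 8.15e-06). Cdkn1a, the CDK inhibitor that p53 induces, fell by 1.28 and 1.38. Skp2, which targets Cdkn1b for destruction, rose by 2.75 and 2.42, and its cofactor Cks1b by 1.47 without MSC. Mycn, a paralog of Myc, had 0, 4 and 0 counts at 6 h and 171, 214 and 107 at 12 h with MSC, and rose there.

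Markers of liver and blood cell types changed across the same libraries. From 6 h to 12 h without MSC, where 24.8% of all genes fell and 24.4% rose, 6 of 8 hepatocyte markers fell. So did 8 of 9 neutrophil markers, 6 of 9 Kupffer cell and macrophage markers and 5 of 6 erythroid markers. Of the 10 T and NK cell markers 2 fell (20%), a share below that of all genes, and 3 of the 10 had a change above 0. Of 9 endothelial markers 5 fell and 1 rose, of 8 stellate cell markers 4 fell and 1 rose, and none of 5 B cell or 4 bile duct markers passed in edgeR (0 at an unadjusted p under 0.05, and 0 in DESeq2). The summed hepatocyte markers lay at 89338 to 105482 CPM at 6 h and 29042 to 49961 CPM at 12 h, the T and NK markers at 31.1 to 59.1 and 7.05 to 20.1 CPM, and the neutrophil markers at 133 to 214 and 28.3 to 46.6 CPM. Kupffer and macrophage markers summed to 46.0 to 99.2 CPM at 6 h and 11.2 to 35.4 CPM at 12 h, and erythroid markers to 403 to 1774 and 101 to 278 CPM. With MSC, where 20.2% of all genes fell and 20.6% rose, 6 of 8 hepatocyte, 7 of 9 neutrophil and 5 of 6 erythroid markers fell. Of the 9 Kupffer and macrophage markers 2 fell (22.2%), and 4 of the 9 had a change above 0. None of the 10 T and NK markers passed in edgeR (1 at an unadjusted p under 0.05, and 1 in DESeq2), and 2 of 5 B cell and 1 of 4 bile duct markers rose. Of the endothelial markers 3 rose and 1 fell there, and of the stellate cell markers 4 rose and 2 fell. In that arm the summed hepatocyte markers lay at 81869 to 84470 CPM at 6 h and 41133 to 47855 CPM at 12 h, and the neutrophil markers at 56.4 to 192 and 29.8 to 41.3 CPM. Erythroid sums were also lower in every 12 h library of that arm than in every 6 h library, and B cell sums were higher. The sums overlapped between the times for the Kupffer and macrophage, endothelial, stellate cell, bile duct, and T and NK lists. They were 31.0 to 98.7 and 64.0 to 104 CPM for Kupffer and macrophage markers, and 77.9 to 122 and 91.1 to 121 CPM for endothelial ones. T and NK markers summed to 18.4 to 69.1 and 17.1 to 24.9 CPM. No marker was at 0 in every library of a group, and the part of these shifts in the members' changes was not tested.

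The next comparison asks what MSC changed at 6 h. No member passed: 0 of 38, against 0.0981% of all genes (14 of 14275: 0.021% rose and 0.0771% fell). DESeq2 also called none, and 4 members had an unadjusted p under 0.05, 3 of them higher and 1 lower with MSC. Over all genes 1561 of 14275 had such a p, 628 of them higher and 933 lower, and DESeq2 called 75 higher and 232 lower. The members' median log2 change was 0.08, beside -0.01 over all genes. The groups did not overlap for Cdk4, Cdkn2c, Top2a and Cdc20, higher with MSC, and Mcm3, lower, where 8.22% and 8.34% of all genes were so separated. Of the 68 cell type markers tested none passed in edgeR or DESeq2 at 6 h, and 4 had an unadjusted p under 0.05.

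The member with the smallest adjusted p at 6 h was Mcm3, with 4.05, 5.08 and 5.44 CPM without MSC and 2.66, 2.61 and 3.64 CPM with it (log2 change -0.71, SE 0.23, edgeR adjusted p = 0.248). All 3 libraries with MSC were below those without. Cdc20 had 0.215, 0.363 and 0.237 CPM without MSC and 0.676, 0.529 and 0.928 CPM with it, from 6, 11 and 6 and 17, 15 and 26 counts (log2 change 1.37, SE 0.54, edgeR adjusted p = 0.358). Cdkn2c, whose 6 h values are given above, was higher in all 3 libraries with MSC (0.62, SE 0.28, edgeR adjusted p = 0.431). In the remaining roles the smallest adjusted p was 0.473 for Ccnd3 (log2 change -0.50), 0.954 for Myc (0.16) and 0.877 for Rrm2 (0.29), all by edgeR. Ccnd3 had 26.4, 43.2 and 43.5 CPM without MSC and 26.3, 27.5 and 26.0 CPM with it, so that library 1 without MSC lay among those with MSC.

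**Figure D4:**
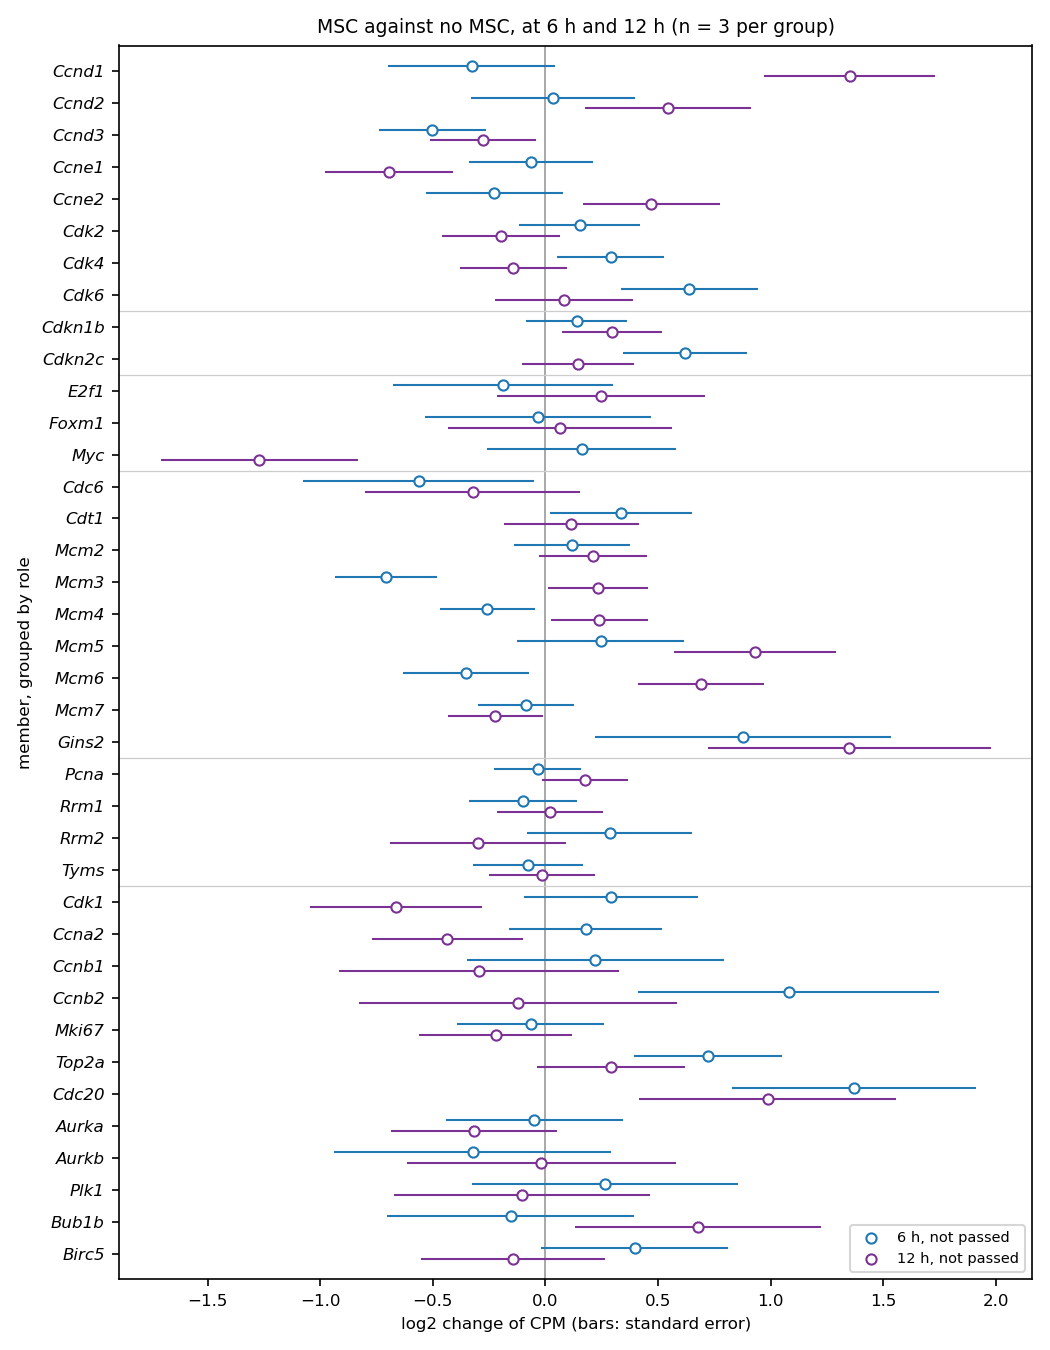
Log2 change with MSC against without, at 6 h (blue) and 12 h (purple), for the 38 tested members in the same order, with standard errors as bars; open points did not pass the threshold, and no member did. Cdc20 at 6 h (1.37) and Ccnd1 and Gins2 at 12 h (both 1.35) are farthest to the right and Myc at 12 h (-1.27) is farthest to the left.

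At 12 h, where 4.08% of all genes passed (2.29% rose and 1.79% fell with MSC), again 0 of 38 members did, while 5 had an unadjusted p under 0.05, 3 of them higher and 2 lower. Over all genes 3146 of 14275 had such a p, 1664 of them higher and 1482 lower. DESeq2 called 2 members, Ccnd1 as higher and Myc as lower, beside 798 higher and 679 lower over all genes. The median change of the members was 0.04, beside 0.00 over all genes. The groups did not overlap for 5 members higher with MSC (Ccnd1, Ccne2, Mcm5, Mcm6 and Gins2) and 3 lower (Ccne1, Myc and Cdk1), against 13.3% and 13.1% of all genes. Scaling by total count shifted the median of all genes by 0.26, and the share of rises among all calls from 56.2% to 88.5%.

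Ccnd1 was 2.55-fold higher with MSC at 12 h, with means of 6.77 ± 1.22 CPM without and 17.3 ± 5.71 CPM with MSC (SD, n = 3), and the 3 libraries of each group stood apart. Its log2 change was 1.35 (SE 0.38, edgeR adjusted p = 0.0663), which did not pass. Over the 19 alternatives its adjusted p ran from 0.00979 to 0.24, and it passed in 5: DESeq2, total count scaling, and the fits without library 1 or 2 of Con A at 6 h or library 1 of Con A + MSC at 12 h. Myc was lower in all 3 libraries with MSC than in the 3 without (log2 change -1.27, SE 0.44, edgeR adjusted p = 0.119). The spread lay in the libraries without MSC: the change was -0.70 (adjusted p = 0.394) without library 3 of that group, which had the highest mitochondrial share, and -1.61 (0.0448) without library 1, which had the lowest. In an edgeR fit that held the mitochondrial share as a covariate, the log2 change of Myc was -0.46 (adjusted p = 0.558). The part of that share in the difference of Myc was not tested.

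None of the helicase subunits passed with MSC at 12 h, and Mcm5 and Mcm6 had the lowest adjusted p among them. Mcm5 had 1.48, 1.12 and 1.29 CPM without MSC and 2.22, 2.74 and 2.48 CPM with it (log2 change 0.93, SE 0.36, edgeR adjusted p = 0.155). Mcm6 had 4.47, 3.18 and 5.14 CPM and 5.29, 7.78 and 7.57 CPM (0.69, SE 0.28, edgeR adjusted p = 0.175). For both genes every library with MSC was above every library without. Cdk1, the mitotic kinase, had 0.766, 1.15 and 0.998 CPM without MSC and 0.469, 0.613 and 0.745 CPM with it (log2 change -0.66, SE 0.38, edgeR adjusted p = 0.330). The lowest adjusted p among the CDK inhibitors was 0.463 for Cdkn1b (0.30), and that in nucleotide supply 0.632 for Pcna (0.18), both by edgeR.

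Of the 119 other cell cycle genes tested, none passed in edgeR at 6 h (6 higher and 11 lower at an unadjusted p under 0.05, and 3 called by DESeq2). Over all 14275 genes at 6 h, 628 were higher and 933 lower at such a p, and DESeq2 called 75 higher and 232 lower. At 12 h 4 passed, 1.68% of the 119 as rises and 1.68% as falls, beside 2.29% and 1.79% of all genes. Shmt1 rose with MSC (log2 change 0.93, edgeR adjusted p = 0.0390), and E2f8, a repressor of the E2F family, and Cdkn1a fell (-0.87 and -0.75, edgeR adjusted p = 0.0401 and 0.0437). Cdkn1a went from 114 ± 16.6 CPM (SD, n = 3) without MSC to 67.7 ± 11.3 CPM with it. Hmmr had 0, 0 and 0 counts without MSC and 4, 11 and 5 with it and rose. In the same comparison 4 of 9 Kupffer cell and macrophage, 5 of 9 endothelial and 5 of 8 stellate cell markers rose, and none of the hepatocyte, T and NK, B cell, neutrophil, bile duct or erythroid markers passed in edgeR. Of those 6 lists, 4 T and NK, 2 bile duct and 1 hepatocyte marker had an unadjusted p under 0.05, and DESeq2 called the same number of bile duct and hepatocyte markers and none of the T and NK markers. Summed Kupffer and macrophage markers lay at 11.2 to 35.4 CPM without MSC and 64.0 to 104 CPM with it, endothelial ones at 35.6 to 48.0 and 91.1 to 121 CPM, and stellate ones at 48.6 to 66.9 and 103 to 186 CPM. The part of these shifts in the values of Ccnd1, Mcm5 and Mcm6 was not tested.

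Last, the MSC effect at 12 h was set against that at 6 h in the same fit, which asks whether the 2 effects differ. No member passed (0 of 38, against 0.126% of all genes, with 0.063% positive and 0.063% negative), with 4 at an unadjusted p under 0.05, and DESeq2 called 1, Ccnd1. Over all genes 2401 of 14275 had such a p, and DESeq2 called 468 positive and 237 negative differences. The members' median was -0.04, beside 0.01 over all genes. For Ccnd1 the effect was -0.33 at 6 h and 1.35 at 12 h, a difference of 1.68 (SE 0.53, edgeR adjusted p = 0.146, DESeq2 adjusted p = 0.0447). Mcm3 had a difference of 0.94 (SE 0.32, edgeR adjusted p = 0.171) and Myc of -1.43 (SE 0.61, edgeR adjusted p = 0.261). Differences of -0.95 for Cdk1, -0.59 for Rrm2 and -0.48 for Cdkn2c were the ones with the lowest adjusted p in their roles (0.402, 0.628 and 0.557, edgeR). Among the other cell cycle genes none of 119 passed in edgeR, with 17 at an unadjusted p under 0.05 and 2 called by DESeq2. The share of positive calls over all genes was 50% on the TMM scale, 88.6% under total count scaling, 66.4% with DESeq2 and 27.3% with mitochondrial genes removed.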

How the data were processed

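RNA from 12 mouse liver libraries was sequenced, and the authors deposited whole-number counts per gene for each library, as 4 tables of 3 columns. Per the submitters' processing notes the tools were Bowtie2 2.2.5, HISAT2 2.0.4 and StringTie 2.1.2, with the build GRCm39. For the counting program, its strand setting and the annotation, the entry is not given in the sources used here. The groups follow the labels.

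The 40 members were matched by symbol, and genes were kept by filterByExpr by group, which left 14275 of 23574 entries. The 12 libraries entered 1 edgeR 4.0.16 fit with TMM factors and 4 group means (8 residual degrees of freedom). Quasi-likelihood tests (two-sided) were adjusted by Benjamini-Hochberg over all genes tested, with a threshold of 0.05. The procedure was run on simulated data for the MSC comparisons at 6 h and 12 h only. The time comparisons, in which far more genes passed, and the difference of the MSC effects were not simulated. Standard errors are the size of a log2 change over the root of its F value. CPM were computed from the deposited counts with the TMM factors. The limit that a count of 0 allows is 3 counts per library and covers counting error only.

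Statistics are given for every member that passed in a comparison and, in roles with none, for the member with the lowest p; of the other cell cycle lists, up to 4 genes with the lowest adjusted p. The members, the lists and the tests were chosen with earlier results of these data known. Alternatives were DESeq2 1.42.0, total count scaling, no filter, a fit of only the libraries compared, a replicate block, the mitochondrial share as a covariate, removal of 13 mitochondrial genes, and leaving out each library. Exon lengths and overlaps come from GENCODE M21 (GRCm38) and promoters from RefSeq (GRCm38.p6), builds other than that of the counts. No 2 libraries were identical.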

Additional observations from a re-analysis of the deposited data

How the results depend on the processing

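Counts of members that passed kept within 1.5 times of the reported ones, except where named here. For MSC at 12 h, 2 passed with DESeq2 (Ccnd1 and Myc), 1 with total count scaling (Ccnd1), 1 with the mitochondrial share as a covariate (Ccnd2) and 0 to 1 when single libraries were left out; for time with MSC, 19 passed with total count scaling; for the difference of the MSC effects, 1 passed with DESeq2. For time with MSC, total count scaling gave 5780 rises and 1228 falls over all genes. When single libraries were left out, 8 to 12 members passed for time without MSC and 8 to 10 with MSC. Over all genes, MSC at 6 h gave 307 with DESeq2, 31 with total count scaling, 50 with no filter, 2 with only the libraries compared and 63 with the covariate, and 1 (without library 3 of Con A or of Con A + MSC at 6 h) to 236 (without library 1 of Con A at 6 h) with single libraries left out. MSC at 12 h gave 1477 with DESeq2, 135 with only the libraries compared, 168 with the covariate and 66 to 1061 with single libraries left out, the lowest and highest without libraries 3 and 1 of Con A + MSC at 12 h. The difference gave 705 with DESeq2, 211 with total count scaling, 45 with no filter, 9 with the covariate, 11 with mitochondrial genes removed and 3 to 131 with single libraries left out. The cause of these shifts was not tested. Of the single-gene values, the change of Myc with MSC at 6 h turned to -0.09 without library 2 of Con A and to -0.20 without library 1 of Con A + MSC at 6 h (range -0.20 to 0.65), and the difference for Rrm2 to 0.038 with the covariate.

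The labels give the groups the same replicate numbers. Same-numbered libraries correlated at -0.23 to 0.13 and differently numbered ones at -0.12 to 0.20. With 3 libraries a group this shows no pairing but cannot exclude one, and the main fit treats the samples as unpaired. With a replicate block, 0 members and 4 genes in all passed for MSC at 6 h, 0 and 313 at 12 h, 11 and 6609 for time without MSC, 9 and 5347 with it, and 0 and 15 for the difference. Depth limits the weak members most: 12 of 40 stayed under 50 counts in every library.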
